A study of Mus musculus with 8 samples.

Results

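The G1/S and DNA replication genes are 41 mouse genes that carry a cell from G1 into S phase and copy its DNA, chosen by name and measured by 75 of the 45037 probe sets of an expression array, and by 1 probe set each in a table of 17097 genes. Every probe set that the platform annotation gives to a listed gene alone was taken, and the brightest set by its mean stood for the gene. All 41 genes were found, 14 with 1 probe set and 27 with several. The RNA came from cells of the interfollicular epidermis, which is the epidermis outside the hair follicles, of G9a cKO animals (4 arrays) and of G9a WT animals (4 arrays). Ehmt2 encodes G9a, an enzyme that methylates lysine 9 of histone H3. cKO is read as conditional knockout; the sources used here name neither the Cre driver nor the deleted exons. Both groups had received the same carcinogenesis treatment, the mutagen DMBA (0.25 mg/ml) and the tumour promoter TPA (0.02 mg/ml), 200 µl of each in acetone on shaved back skin weekly. This began at 8 weeks of age and went on for 6 weeks, and the animals were labelled as 15 weeks old and pre-neoplastic.

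Entry into S phase is governed by the E2F transcription factors, which the retinoblastoma family of pocket proteins holds back until cyclin-dependent kinases release them. E2F then raises the genes of its own pathway, among them those of the E-type cyclins, of the proteins that load and fire replication origins, of the polymerases and of nucleotide synthesis. In the epidermis these genes mark the dividing cells of the basal layer, and TPA is known for driving keratinocytes into division. The comparison asks whether this programme differs in the treated skin of G9a cKO animals.

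On the log2 scale the medians of the 8 arrays ran from 5.72 to 5.80. At 1 of the 2 Ehmt2 probe sets the cKO arrays read 6.30 to 7.07 and the WT arrays 9.25 to 9.77 (limma adjusted p over all probe sets = 0.000244), while the other Ehmt2 probe set differed by 0.01 (adjusted p = 0.996); no protein was measured. The tissue label was checked against keratin genes of the epidermis. Krt5, Krt14, Krt1 and Krt10 all read between 12.1 and 12.9 on every cKO and WT array. These genes cannot tell interfollicular epidermis from other sources of keratinocytes. The mean over 6 of 7 hair follicle markers was 5.46 to 5.57 in cKO and 5.45 to 5.51 in WT. Array WT 4 lay among the cKO arrays on the first principal component, and cKO 2 was the cKO array nearest to the other WT arrays, and results are also given without both. As these 2 arrays were picked for lying towards the opposite group, leaving them out parts the groups by construction, and the counts without them are no independent support. In these bulk samples, fewer dividing cells and less RNA per dividing cell cannot be told apart. Levels of different probe sets depend on their probes and are not compared between genes.

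None of the 41 genes passed the test between cKO and WT arrays (limma, Benjamini-Hochberg adjusted p under 0.05 over all 17097 genes), against a background of 0.977% of all genes called, 0.187% lower and 0.79% higher. The adjusted p-values of the 41 genes ran from 0.109 to 0.993. Of the 41 genes 37 read lower in cKO, where 45.2% of all genes did, and their median log2 fold change was -0.14, against 0.0083 over all genes. At an unadjusted p under 0.05, 9 of the 41 were lower and 0 higher, against backgrounds of 3.22% and 6.12%. The 9 were E2f2, Prim1, Pole2, Mcm10, Rfc4, Gins1, Mcm4, Cdc6 and Dbf4. In 3 genes, E2f2, Prim1 and Pole2, all 4 cKO arrays lay below all 4 WT arrays (1.92% of all genes did), and in 0 they lay above (3.8% of all genes). The 41 genes were read on the same 8 arrays and move together from array to array, so these counts are not independent observations. Of the 75 probe sets 59 read lower in cKO and 0 passed over all probe sets, where 0.466% of all sets passed, 0.0733% lower and 0.393% higher. At an unadjusted p under 0.05, 13 of them were lower (background 2.92%) and 0 higher (background 5.06%), and in 6 the groups did not overlap, with cKO lower (background 1.72%). The probe sets of 7 genes, Cdc7, Cdt1, Gins2, Mcm5, Orc1, Rpa2 and Slbp, differed in sign among themselves. The positive set stood at 0.0036 in Cdt1, 0.0039 in Gins2, 0.0084 in Mcm5, 0.03 in Rpa2, 0.04 in Cdc7, 0.07 in Slbp and 0.08 in Orc1.

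**Figure D1:**
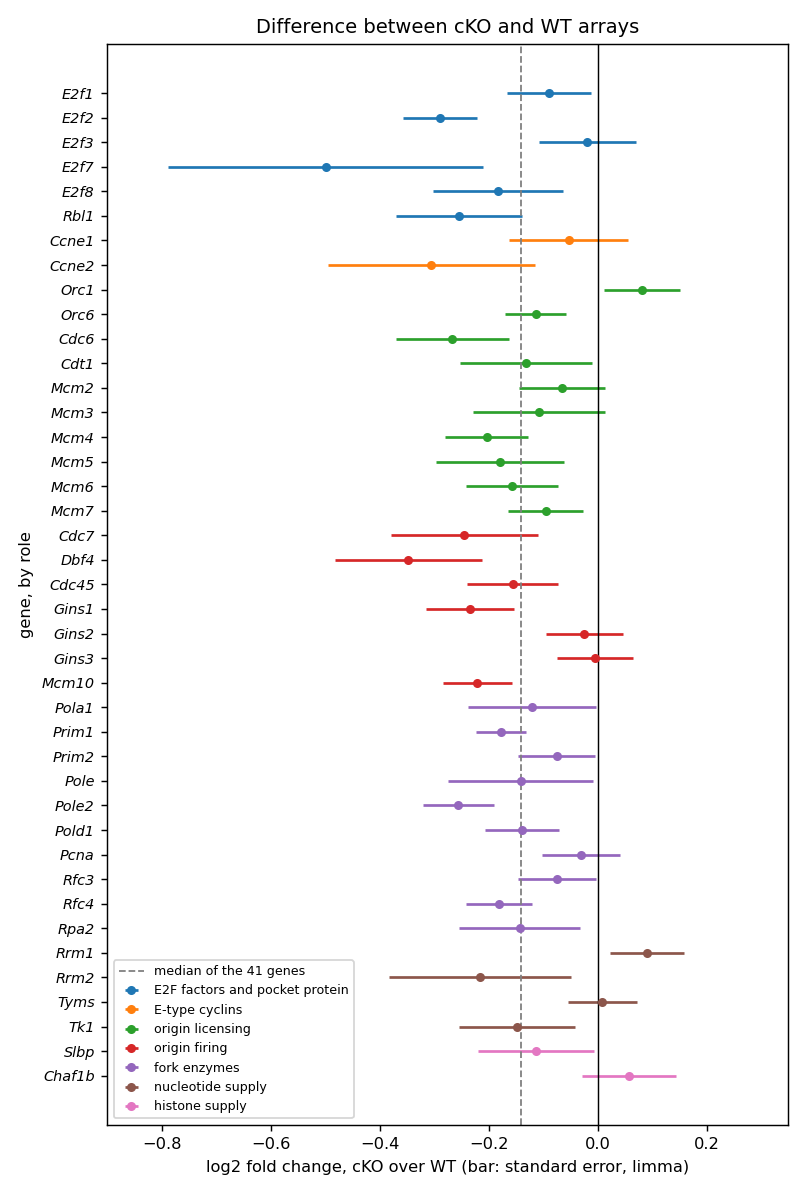
Log2 fold change of cKO over WT for each of the 41 genes (points, with limma standard errors as bars; 4 arrays per group), by role, with the median of -0.14 as a dashed line. Of the points, 37 lie left of 0, and E2f7, at -0.50, lies furthest out and has the widest bar.

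Of the E2F transcription factors, the gene of the activator E2F2 had the smallest p. At the probe set standing for the gene, E2f2 read 8.66, 8.68, 8.80 and 8.90 on the cKO arrays and 8.95, 9.15, 9.09 and 9.01 on the WT arrays. At its second probe set it read 7.94, 7.72, 7.98 and 7.87 on the cKO arrays and 8.18, 8.30, 8.30 and 8.17 on the WT arrays. At neither set did the groups overlap, although at the first the highest cKO array, cKO 4, came within 0.045 of the lowest WT array. The log2 fold changes were -0.29 (SE 0.07) and -0.36 (SE 0.06), or 18.2% and 22.3% lower in cKO, and neither passed when every probe set was tested (adjusted p = 0.170 and 0.0579 in limma). The second set passed over all probe sets with cyclic loess (limma adjusted p = 0.0266, background 0.0977% lower), median centring (0.0350, background 0.0955%), array weights (0.0266, background 0.386%) and without both cKO 2 and WT 4 (0.0414, background 0.411%). With the probe sets of each gene averaged, E2f2 passed at -0.33 (limma adjusted p = 0.0331), the only one of the 41 to do so, against a background of 0.216% of genes lower in that setting.

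In the other E2F genes the groups overlapped. E2f7, which encodes an atypical E2F that represses the E2F programme, had the largest difference of the 41 genes and the widest spread. It read 7.01, 7.07, 6.34 and 6.04 on the cKO arrays and 7.39, 7.15, 7.54 and 6.39 on the WT arrays, so that cKO 3, cKO 4 and WT 4 were all far below the rest and the groups overlapped. The difference of -0.50 log2 units (SE 0.29; adjusted p = 0.697 in limma) was smaller than the range within either group, which was 1.03 in cKO and 1.15 in WT, and ran from -0.89 to -0.31 over the alternatives. E2f8, its close relative, stood at -0.18 and -0.26 at its 2 probe sets, and its adjusted p in the gene table was 0.756. The activators E2f1 and E2f3 stood at -0.09 and -0.02, though a second probe set of E2f3 stood at -0.27. Rbl1, which encodes a pocket protein of the retinoblastoma family, read 6.76, 6.44, 6.33 and 6.12 in cKO and 6.74, 6.58, 6.73 and 6.62 in WT. Its cKO arrays were scattered over 0.64, from above every WT array to below every one, and the log2 fold change was -0.25 (SE 0.12, limma adjusted p = 0.552), or -0.16 without cKO 4 and -0.16 with its probe sets averaged.

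**Figure D2:**
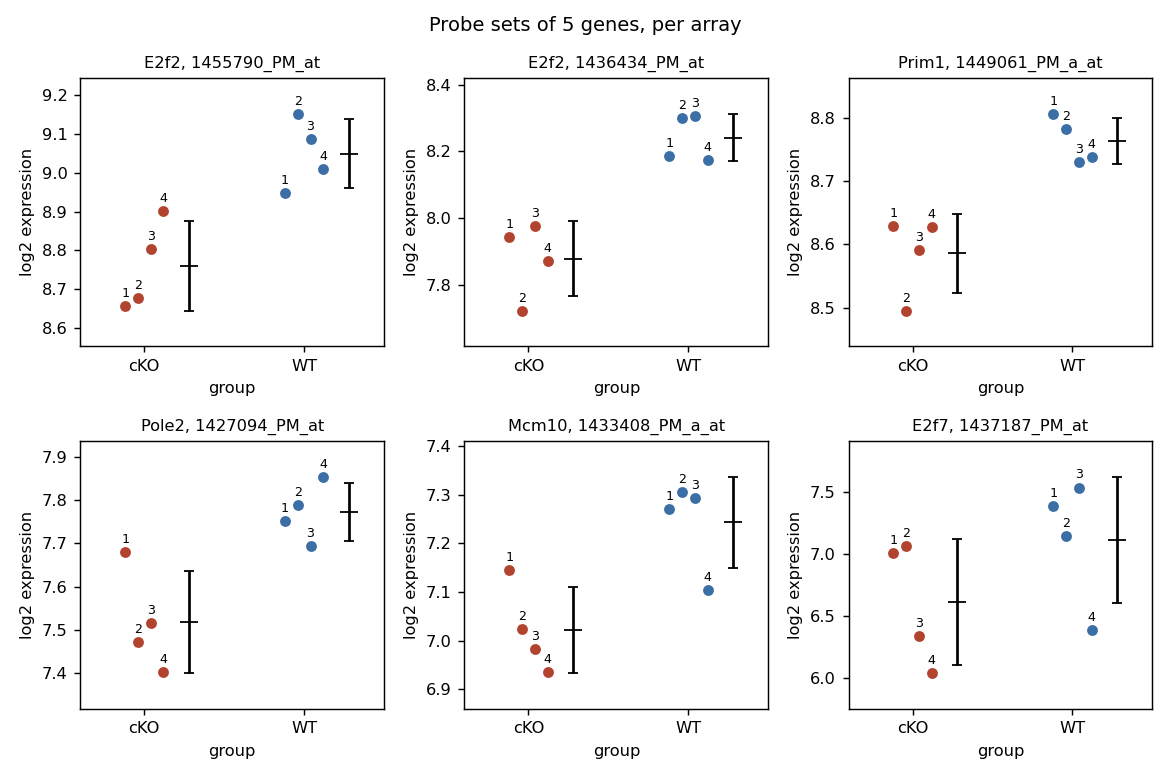
Log2 expression on each array (numbered points) at 6 probe sets of 5 genes, cKO left and WT right, with the mean and SD of each group of 4 as bars. The groups do not overlap at either set of E2f2, at Prim1 or at Pole2, while in E2f7 arrays cKO 3, cKO 4 and WT 4 lie below the others.

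Cyclin E activates the kinase CDK2 at the entry to S phase. Ccne2 read 4.68, 4.60, 4.34 and 4.27 on the cKO arrays and 4.74, 5.25, 4.88 and 4.23 on the WT arrays, with the lowest value of all on WT 4. Its log2 fold change was -0.31 (SE 0.19, limma adjusted p = 0.734), and stood at -0.15 without WT 2 and -0.49 without WT 4. Ccne1 read 6.98, 7.09, 6.76 and 6.61 in cKO and 7.00, 7.02, 6.93 and 6.71 in WT, and its groups lay over each other (-0.05, SE 0.11, limma adjusted p = 0.960). Its sign turned without cKO 4.

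Origins are licensed by the origin recognition complex (here Orc1 and Orc6), by Cdc6 and Cdt1, which load the helicase, and by the helicase subunits Mcm2 to Mcm7. Of these 10 genes 9 read lower in cKO. At an unadjusted p under 0.05, 2 were lower, both counted above, against 3.22% of all genes. Cdc6 read 5.22, 5.28, 4.94 and 4.98 in cKO and 5.47, 5.51, 5.39 and 5.12 in WT (-0.27, SE 0.10, limma adjusted p = 0.436). Mcm4 read 7.74, 7.64, 7.47 and 7.46 in cKO and 7.85, 7.79, 7.85 and 7.64 in WT (-0.20, SE 0.08, limma adjusted p = 0.416). In both genes WT 4 was the only WT array within the cKO range. The other helicase genes stood between -0.07 for Mcm2 and -0.18 for Mcm5, Cdt1 at -0.13 and Orc6 at -0.11. Orc1 was the exception at 0.08, and its second probe set stood at -0.13.

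Loaded origins are fired by the kinase Cdc7 with its activator Dbf4, by Cdc45 and the GINS complex, which complete the active helicase, and by Mcm10. All 7 of these genes read lower in cKO, with a median log2 fold change of -0.22. At an unadjusted p under 0.05, 3 were lower, all counted above, against 3.22% of all genes. Mcm10 read 7.14, 7.02, 6.98 and 6.94 in cKO and 7.27, 7.30, 7.29 and 7.10 in WT, so that only cKO 1 and WT 4 crossed (-0.22, SE 0.06, limma adjusted p = 0.215). At another of its 3 probe sets, which stood at -0.25, the groups did not overlap, and at the last, at -0.11, they did. Gins1 read 7.43, 7.33, 7.24 and 7.18 in cKO and 7.54, 7.67, 7.56 and 7.33 in WT, with the array WT 4 again alone inside the cKO range (-0.23, SE 0.08, limma adjusted p = 0.348). Cdc45 stood at -0.16. Dbf4 stood at -0.35 (SE 0.13) and Cdc7 at -0.24 (SE 0.14), each with a further probe set near 0 (-0.02 and 0.04). With probe sets averaged Dbf4 stood at -0.19. The other GINS genes measured, Gins2 and Gins3, stood at -0.03 and -0.0048.

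All 10 genes of fork enzymes read lower in cKO, by small amounts. Prim1, the catalytic subunit of the primase that lays down RNA primers, had the least scatter of them in WT. It read 8.63, 8.50, 8.59 and 8.63 on the cKO arrays and 8.81, 8.78, 8.73 and 8.74 on the WT arrays, and the gap of 0.10 between the groups was wider than the range of 0.076 within WT and narrower than that of 0.134 within cKO. The difference was -0.18 (SE 0.05, limma adjusted p = 0.155), or 11.6% lower in cKO. Its second probe set read 8.41 to 8.48 in cKO and 8.54 to 8.56 in WT, again without overlap, at -0.10. Pole2, an accessory subunit of the leading-strand polymerase epsilon, read 7.68, 7.47, 7.52 and 7.40 in cKO and 7.75, 7.79, 7.69 and 7.86 in WT. The groups were parted by 0.013 between cKO 1 and WT 3, the log2 fold change was -0.26 (SE 0.07, limma adjusted p = 0.149), and the other probe set of Pole2, at -0.09, overlapped.

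The remaining fork genes showed no such separation. The clamp loader gene Rfc4 stood at -0.18 (SE 0.06, limma adjusted p = 0.324) and was also lower, at -0.16, at its second set. Pole, Pold1 and Pola1, the catalytic subunits of the polymerases epsilon, delta and alpha, stood at -0.14, -0.14 and -0.12, and Rpa2, of the complex that coats single-stranded DNA, at -0.14. Prim2, the regulatory primase subunit, stood at -0.08, the clamp loader gene Rfc3 at -0.07, and Pcna, the sliding clamp, at -0.03. Pcna read 10.9 to 11.1 on the cKO arrays and 10.8 to 11.1 on the WT arrays.

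Genes that supply nucleotides and histones went both ways. Rrm1, the large subunit of ribonucleotide reductase, read 9.66, 9.70, 9.50 and 9.46 in cKO and 9.48, 9.59, 9.50 and 9.39 in WT, the largest positive difference of the 41 genes (0.09, SE 0.07, limma adjusted p = 0.809). Rrm2, the small subunit made in S phase, stood at -0.22 (SE 0.17), and its values again split by array, with cKO 3, cKO 4 and WT 4 at 8.34 to 8.42 and the other arrays at 8.74 to 9.13. Tk1, thymidine kinase, read 8.61, 8.40, 8.21 and 8.22 in cKO and 8.51, 8.66, 8.58 and 8.27 in WT (-0.15, SE 0.11, limma adjusted p = 0.799). Tyms, thymidylate synthase, stood at 0.01. Slbp, which binds the stem-loop of histone mRNAs, read 9.33, 9.24, 9.11 and 8.85 in cKO and 9.37, 9.31, 9.26 and 9.04 in WT (-0.11, SE 0.11, limma adjusted p = 0.876). Chaf1b, of the chromatin assembly factor that places histones behind the fork, read 7.34, 7.52, 7.33 and 7.11 in cKO and 7.33, 7.37, 7.18 and 7.19 in WT (0.06, SE 0.09, limma adjusted p = 0.941). In all 4 of these genes given array by array the groups overlapped. Single arrays moved all 4 values by over 1.5 times: Rrm1 stood at 0.05 without cKO 2 and 0.06 without WT 4, Tk1 at -0.09 without WT 2, -0.10 without cKO 3, -0.23 without cKO 1 and -0.23 without WT 4. Slbp stood at -0.02 without cKO 4, -0.07 without WT 1, -0.18 without cKO 1 and -0.18 without WT 4. Chaf1b stood at 0.13 without cKO 4 and changed sign without cKO 2. Over all alternatives Rrm2 ran from -0.46 to -0.12.

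**Figure D3:**
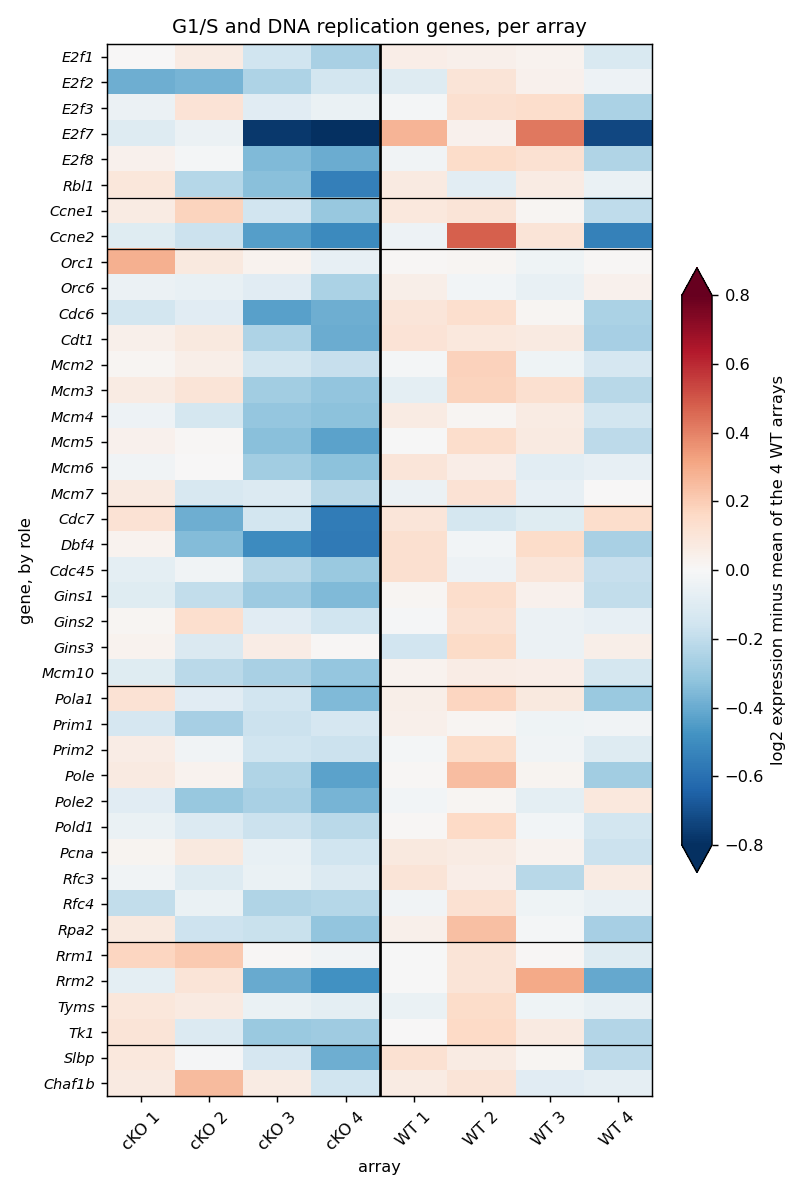
Log2 expression of the 41 genes (rows, by role) on the 8 arrays (columns, cKO left of the line), as the difference from the mean of the 4 WT arrays; the colour scale ends at -0.8 and 0.8, and values beyond it take the end colour. Blue columns at cKO 3, cKO 4 and WT 4 run through most of the rows, while E2f2, Prim1 and Pole2 are blue across the cKO columns.

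The genes varied together among arrays of the same genotype. The mean over the 41 genes was 7.68, 7.63, 7.47 and 7.38 on the cKO arrays and 7.71, 7.78, 7.71 and 7.52 on the WT arrays. The cKO mean was thus 7.54 ± 0.14 and the WT mean 7.68 ± 0.11 (SD over arrays, n = 4 each), and the difference of -0.14 was about as large as the spread within cKO. Of the cKO arrays cKO 4 was the lowest in 34 of the 41 genes, against 36.8% of all genes, and of the WT arrays WT 4 was the lowest in 29, against 30.5%. Both cKO 3 and cKO 4 lay below both cKO 1 and cKO 2 in 34 of the 41 genes, against 24.7% of all genes. In 38 genes the difference between the groups was smaller than the range within cKO, and in 34 it was smaller than the range within WT. E2f2 went against this order, since cKO 4 was its highest cKO array at the probe set standing for it.

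**Figure D4:**
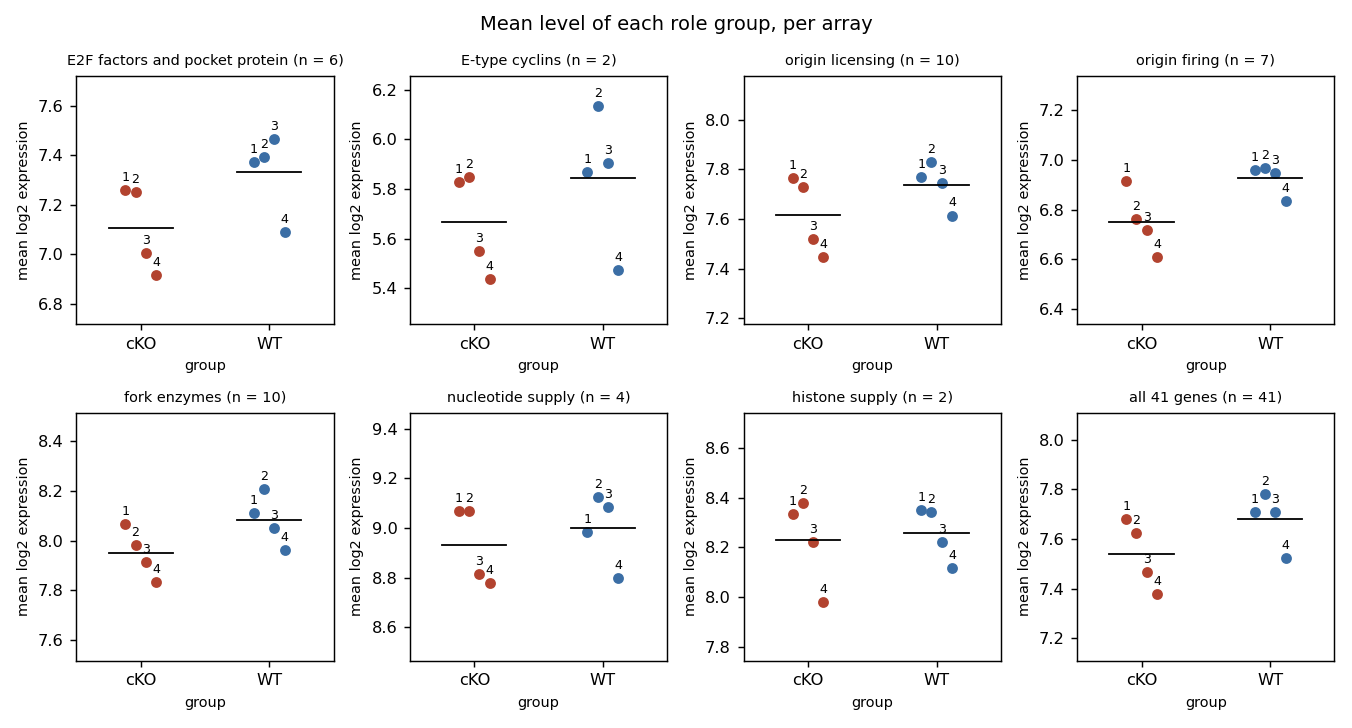
Mean log2 expression over the genes of each role group and over all 41 genes, on each array (numbered points; cKO left, WT right; lines are group means of 4 arrays), with axes of equal height. In every panel cKO 4 is the lowest cKO array and WT 4 the lowest WT array, and no panel separates the groups.

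The size of the difference depended on these arrays. The median log2 fold change of the 41 genes was -0.09 without cKO 4, -0.09 without WT 2, -0.20 without WT 4 and -0.22 without both cKO 2 and WT 4. The number of genes lower at an unadjusted p under 0.05 was 14 without cKO 1 (background 5.2%), 18 without WT 4 (background 5.42%) and 22 without both cKO 2 and WT 4 (background 6.16%). It was 6 without cKO 3, cKO 4, WT 1 or WT 2, 7 without WT 3 and 10 without cKO 2, where the background was 2.26% to 2.84%. Genes whose groups did not overlap, with cKO lower, numbered 10 without cKO 1 (background 5.28%), 11 without WT 4 (background 4.88%) and 17 without both cKO 2 and WT 4, against a background of 7.38%. They numbered 3 without cKO 3, cKO 4, WT 1 or WT 2, as on all 8 arrays, 4 without cKO 2 and 5 without WT 3. The background in these settings was 2.49% to 3.00%. With array weights, which the fit estimates from the same arrays and which were highest for cKO 3 (3.14) and lowest for WT 4 (0.476), 8 genes passed and all were lower: E2f2, Mcm4, Cdc6, Mcm10, Gins1, Dbf4, Prim1 and Pole2, against a background of 0.825%. Over the 41 genes cKO 3 (mean 7.47) lay below cKO 1 and cKO 2, and WT 4 (7.52) was the lowest WT array. With the weights the median was -0.19, against -0.14 without them, and the 8 genes are no independent support. In 4 other settings 1 gene passed: E2f2 with its probe sets averaged (0.0331), Pole2 without cKO 1 (limma adjusted p = 0.0499, background 0.164%), Pole2 with median centring (0.0395, background 0.31%), and Cdc6 without both cKO 2 and WT 4 (0.0405, background 0.678%).

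The promoters of the genes were searched for the letters that E2F factors are known to bind, because the genes varied together among the arrays; a match is a run of letters and was not tested as a binding site. Of the 41 genes 35 were found in a RefSeq table (build GRCm38.p6) that holds 300 bases around the start of transcription, 250 before and 50 after it, as 39 windows. The letters searched, on both strands, were TTCCCGC or one of its variants TTCGCGC or likewise TTGCCGC or lastly TTGGCGC. Of the 39 windows 66.7% held at least 1 of them, against 9.57% of all 32851 windows of the table. The genes were chosen by name from a programme that E2F is known to raise, so a higher share was to be expected. The windows were not matched for base composition, and a part of E2F in the joint variation was not tested. CCAAT, the letters bound by the factor NF-Y, searched on both strands, stood in 61.5% of the 39 windows, against 37.4% of all windows. It can overlap an E2F match by a few letters. The 24 genes with an E2F-type match had a median log2 fold change of -0.15, from -0.50 to 0.09. The 11 without one had -0.11, from -0.35 to 0.01. A gene classed as without a match may hold one outside its window. Mcm10 had no match in its window, and the second window of E2f2 had none. The window of Mcm10 ends in ttggcg, with which TTGGCGC begins, so that a match across its edge cannot be read. The windows of the 3 genes whose groups did not overlap, and that of Rrm1, which stood highest, are printed 5′ to 3′ on the strand of the gene with the matches in capitals. They lie at chr4:136172024-136172323 (plus strand) for E2f2, chr10:128014965-128015264 (plus strand) for Prim1, chr12:69228141-69228440 (minus strand) for Pole2 and chr7:102441445-102441744 (plus strand) for Rrm1.
E2f2: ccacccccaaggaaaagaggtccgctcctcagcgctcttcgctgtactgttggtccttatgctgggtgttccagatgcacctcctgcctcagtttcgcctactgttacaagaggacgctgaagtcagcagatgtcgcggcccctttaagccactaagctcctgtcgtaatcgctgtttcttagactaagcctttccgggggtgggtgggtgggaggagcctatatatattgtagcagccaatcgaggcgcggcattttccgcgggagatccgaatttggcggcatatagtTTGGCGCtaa
Prim1: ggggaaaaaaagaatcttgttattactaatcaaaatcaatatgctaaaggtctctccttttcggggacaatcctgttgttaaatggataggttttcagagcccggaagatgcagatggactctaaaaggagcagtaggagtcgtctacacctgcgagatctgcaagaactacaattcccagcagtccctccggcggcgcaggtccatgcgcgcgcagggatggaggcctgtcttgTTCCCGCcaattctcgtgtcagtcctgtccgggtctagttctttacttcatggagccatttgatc
Pole2: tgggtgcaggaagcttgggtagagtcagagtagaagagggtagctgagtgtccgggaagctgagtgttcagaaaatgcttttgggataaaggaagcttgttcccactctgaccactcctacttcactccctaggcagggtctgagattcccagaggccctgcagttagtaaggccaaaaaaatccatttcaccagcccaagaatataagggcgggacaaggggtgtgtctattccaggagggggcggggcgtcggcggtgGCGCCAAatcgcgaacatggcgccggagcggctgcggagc
Rrm1: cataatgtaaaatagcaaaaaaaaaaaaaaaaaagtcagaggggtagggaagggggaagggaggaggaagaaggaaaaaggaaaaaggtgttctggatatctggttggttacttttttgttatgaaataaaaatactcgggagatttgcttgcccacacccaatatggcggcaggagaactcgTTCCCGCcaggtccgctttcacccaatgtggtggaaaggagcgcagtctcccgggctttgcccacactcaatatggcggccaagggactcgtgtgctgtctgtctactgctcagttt
Each window holds 1 match, which begins at base 41 after the start in E2f2, 15 before it in Prim1, 11 after it in Pole2 and 67 before it in Rrm1. Prim1 and Rrm1 carry the same TTCCCGC, in the direction of the gene. Their log2 fold changes were -0.18 (SE 0.05) and 0.09 (SE 0.07), and neither passed over all genes (limma adjusted p = 0.155 and 0.809). A link between matches and differences was not tested.

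Other genes of the pathway had a median nearer to 0. Of 59 further G1/S and replication genes 50 were measured, and 40 of them read lower in cKO, with a median log2 fold change of -0.06. None passed over all genes, while at an unadjusted p under 0.05 there were 11 lower and 2 higher, against 3.22% and 6.12% of all genes. Timeless, of the fork protection complex, read 6.90, 6.80, 6.74 and 6.52 in cKO and 7.08, 7.00, 7.12 and 7.08 in WT without overlap (-0.33, SE 0.08, limma adjusted p = 0.106). Orc2, of the origin recognition complex, stood at -0.25 (SE 0.07, limma adjusted p = 0.204), and passed without WT 4 (-0.31, limma adjusted p = 0.0296), without both cKO 2 and WT 4 (0.0402) and with array weights (0.0233). In these settings, in the same order, 61, 116 and 141 of all 17097 genes were called lower. Rb1, the retinoblastoma pocket protein that restrains E2F, stood on the other side. It read 7.84, 7.92, 8.14 and 8.05 in cKO and 7.66, 7.69, 7.69 and 7.78 in WT without overlap (0.28, SE 0.07, limma adjusted p = 0.118). With its probe sets averaged Rb1 stood at 0.15 (limma adjusted p = 0.444). With array weights Rb1 passed at 0.37 (0.0129) and Timeless at -0.35 (0.0167), where 463 of all 17097 genes were called higher and 141 lower. Pole4, a histone-fold subunit of polymerase epsilon, stood at 0.18 (SE 0.05, limma adjusted p = 0.177), again without overlap. Of the polymerase epsilon genes given here, Pole2 (-0.26) and Pole (-0.14) read lower and Pole4 higher, and none passed. In 4 of the 50 genes all cKO arrays lay below all WT arrays (1.92% of all genes did). In 2 they lay above (3.8% of all genes).

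**Figure D5:**
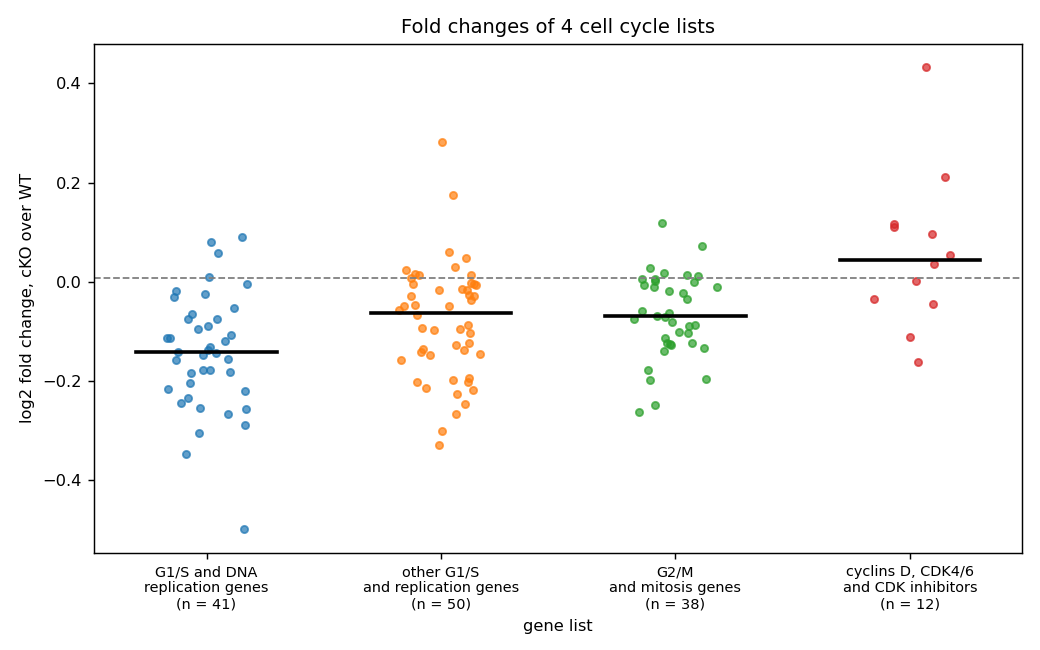
Log2 fold change of cKO over WT for each gene (points) of the 41 genes and of 3 further lists, with list medians as black lines and the median of all 17097 genes as a dashed line. The medians are -0.14, -0.06, -0.07 and 0.04 from left to right.

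Most genes of mitosis also read lower, and no gene of either remaining list passed. Of 38 measured G2/M and mitosis genes 29 read lower in cKO, with a median of -0.07, 0 passed and 4 were lower at an unadjusted p under 0.05, against 3.22% of all genes. The centromere protein gene Cenpf stood at -0.25 (SE 0.06, limma adjusted p = 0.107), at -0.14 with its probe sets averaged (0.388), and passed with array weights (-0.28, 0.0201, background 0.825% lower). Mki67, the proliferation marker Ki-67, read 9.88, 9.90, 9.71 and 9.80 in cKO and 10.1, 10.1, 9.92 and 9.93 in WT without overlap (-0.18, SE 0.06, limma adjusted p = 0.349). The mean over the G2/M genes was 8.22 to 8.44 on the cKO arrays and 8.27 to 8.50 on the WT arrays, again lowest on cKO 4 and WT 4 within the groups. Of 12 measured genes of D-type cyclins, CDK4, CDK6 and CDK inhibitors 4 read lower, where 45.2% of all genes did, with a median of 0.04. The inhibitor genes Cdkn2b and Cdkn2a stood at 0.43 (SE 0.12) and 0.21 (SE 0.08), with limma adjusted p of 0.188 and 0.402, and Cdkn2b passed with array weights (0.53, limma adjusted p = 0.0260). With those weights 463 of all 17097 genes were called higher. Whether these lists differ from the 41 genes was not tested.

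Markers of cell types gave the following levels beside these results. The mean over 8 of 8 basal keratinocyte markers was 11.6 on every cKO array and 11.5 to 11.6 on the WT arrays, and their median log2 fold change was 0.05. Higher in cKO were 5 of the 8 and lower 3. Cxcl14, a chemokine gene, was the only 1 of them called, and was higher (0.32, limma adjusted p = 0.0437, background 0.79% higher). The mean over 10 of 10 spinous and granular markers was 8.50 to 8.66 in cKO and 8.60 to 8.78 in WT, with a median of -0.13. Lower in cKO were 7 of the 10 and higher 3. Cdsn, which encodes corneodesmosin of the cornified layer, was the only 1 of them called, and was lower (-0.38, limma adjusted p = 0.0450, background 0.187% lower). The mean over 9 of 9 myeloid and Langerhans cell markers was 5.22 to 5.42 in cKO and 5.02 to 5.31 in WT. Their log2 fold changes ran from -0.10 to 0.49 with a median of 0.05, and none passed. Of these 9 markers 7 read higher in cKO and 2 lower, where 45.2% of all genes read lower. The leukocyte marker Ptprc, 1 of the 9, read 3.40 to 3.63 over the 8 arrays, where the lowest value of the table is 3.06. The medians were 0.02 for 9 of 10 general keratinocyte markers, -0.03 for 6 of 7 of the hair follicle, 0.05 for 7 of 8 of T cells, 0.04 for 6 of 6 of fibroblasts, 0.08 for 5 of 5 of melanocytes and -0.0020 for 5 of 5 of endothelial cells, and no marker in these 6 lists passed. The part of these cells in the results was not tested.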

How the data were processed

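The authors deposited log2 expression values per probe set of a 1-colour array, made with RMA per the submitters' processing notes. No version or setting of RMA is recorded there, and that the logarithm has base 2 was read from the range of values, 3.06 to 13.0. RMA evens out probe intensities between arrays, which can hide a shift common to most genes. Per the labels, 25 ng of RNA were amplified in 17 cycles. Of 45141 rows, 104 control probe sets were left out. The annotation gives 28898 probe sets 1 gene and 551 several, and 15588 are unnamed here; 28689 were matched by Entrez number to the RefSeq table (GRCm38.p6). Dim probe sets were kept, and 34 of the 41 genes lie above the median of all genes by mean.

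Groups came from the sample titles. The titles number the replicates without naming animals, so p-values cover the spread between samples, which may be technical. With 4 arrays per group their number limits the precision. The cKO and WT arrays were compared by limma 3.58.1, using lmFit and eBayes under R 4.3.3, with two-sided tests adjusted by Benjamini-Hochberg over all 17097 genes or all 45037 probe sets. The fit was tested on simulated data. Members, lists and tests were chosen with earlier results of these data known. Given array by array are, in each of 7 role groups, the 2 genes with the smallest p, and all whose groups do not overlap. Of the further replication genes 4 and of each other list 2 are named by the same rule. Other genes given by value, such as E2f7, Dbf4 and Rrm2, were chosen after their values were seen. Alternatives left out arrays or changed the scaling, the probe set rule, the filter, the weights or the block. Plots were drawn with matplotlib 3.10.9.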

Additional observations from a re-analysis of the deposited data

Results flagged for a closer look

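Of 66 groups of 4 arrays (22 genes and 11 list means, each in cKO and in WT), 3 held an array whose gap to its nearest neighbour took up more of the range of the group than Dixon's critical value for 4 samples, and chance flags about 1 group in 20. For the mean over the origin firing genes WT 4 read 6.83 and the other WT arrays 6.95 to 6.97, a gap of 0.872 of the range. For Cdkn2a cKO 1 read 4.54 and the other cKO arrays 4.82 to 4.83, a gap of 0.991 of the range. For the mean over the genes of D-type cyclins, CDK4, CDK6 and CDK inhibitors cKO 4 read 8.76 and the other cKO arrays 8.84 to 8.85, a gap of 0.904 of the range.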

How the results depend on the processing

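The median log2 fold change of the 41 genes was negative under all 18 alternatives, from -0.22 to -0.09, and from -0.20 to -0.09 when single arrays were left out. With all 41 measured, 34 to 38 read lower in cKO. The share of all genes lower ran in these settings from 41.8% without cKO 2 to 63.9% with median centring. The number of the 41 genes past the threshold, 0, was 0 to 1 when single arrays were left out, 1 without both cKO 2 and WT 4, 1 with median centring, 1 with the mean of all probe sets and 8 with array weights, all lower in cKO. Over all genes, 167 passed, against 81 to 250 when single arrays were left out, 436 without both cKO 2 and WT 4, 69 among genes above the median by mean and 604 with array weights. Of probe sets 210 passed, against 104 to 356, 657, 132 and 758 in the same settings. Median centring gave 118 genes higher and 53 lower, against 135 and 32 on the deposited scale, and put the median of all genes at -0.025, against 0.0083. The cause of these changes was not tested, except that fewer genes lie above the median. Of 393 values of 22 named genes under alternatives, 372 kept their direction and side of the threshold, 18 crossed it and 3 changed sign. Ccne1 stood at 0.030 without cKO 4, and between -0.13 and 0.030 over the arrays left out. Chaf1b stood at -0.0079 without cKO 2 and -0.033 without both cKO 2 and WT 4, and between -0.0079 and 0.13 over the arrays left out. Deviations of same-numbered arrays correlated at 0.14, 0.18, -0.59 and 0.31, which cannot decide whether the replicate numbers pair the samples. With the replicate number as a block 141 genes, 175 probe sets and 0 of the 41 genes passed, 16 of the 41 were lower at an unadjusted p under 0.05 (3.23% of all genes were), and the median stayed at -0.14. Of the 4 cKO arrays 2 correlated best with the WT array of their own number. Counts of genes whose groups do not overlap without single arrays were added after seeing the data. The arrays give no measure of signal over background, so that the lowest levels, such as those of Ccne2 and Cdc6, have an unknown floor.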
